A study of Drosophila melanogaster with 3 samples.

Results

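Promoter peaks whose summits lay over 200 and up to 1000 bp upstream of a transcription start site (TSS) were described in chromatin from whole Drosophila melanogaster prepupae that carried a GFP-tagged salr gene. The members were taken from the peaks that the authors kept for their agreement between libraries, as measured by the irreproducible discovery rate (IDR). A peak was a member when its summit was in that range from the nearest TSS in the Ensembl BDGP6 annotation, with transposable elements left out. Peaks within 500 bp upstream of TSSs on both strands were dropped, which removed 26 peaks of this distance range. This left 529 of 3839 IDR peaks, or 13.8%. The rule used position alone and no measured strength. Distance to the TSS is therefore a description.

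The assay was chromatin immunoprecipitation followed by sequencing (ChIP-seq), and the deposit holds 3 biological replicates that form a single group. Each library came from prepupae aged 24 hours, with males and females pooled, of a stable transgenic line in which salr was joined at its C terminus to GFP. Whole animals were used, so all cell types are mixed, and a peak cannot be assigned to a tissue. The labels do not say whether the tagged salr is an extra copy or what drives it, and they give each replicate a biosample of its own from 1 fly line, without saying how the animals were collected. They contradict each other on 1 point, since the free text has every library as an input control, while the stated assay and antibody, and the control that is named elsewhere, speak for ChIP. There is no untagged or untreated group, so no comparison between conditions was possible. The 3 library lists and the pooled list hold 30000 peaks each, with weak peaks and background included, and a control file is common to all of them. No read counts are in the files, and the depth of the libraries is unknown. Library 2 stood apart from the others at members rich in G and C, as given below, so values are printed per library.

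Salr (spalt-related) and its neighbouring paralog salm encode zinc finger transcription factors, which in flies pattern the wing, the trachea, sensory organs and the eye, and specify fibrillar flight muscle. Spalt zinc fingers are known to prefer A/T-rich DNA. The core promoter of a gene is bound by the general transcription machinery around the TSS. Upstream of it lies sequence in which gene-specific factors often bind, and many fly genes have further start sites inside the gene, so that sequence upstream of an internal TSS can be an intron of the same gene.

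Sequences that run from 50 bp before to 50 bp after the summit are given for 8 of the strongest members and for the spalt genes themselves. The 8 are a selection and not the 8 strongest, and were chosen to show the A/T-rich words described further on. They are Release 6 (dm6) sequence from RefSeq, written 5′ to 3′ on the strand of the gene, so the TSS lies beyond the right end. Capitals mark the word AATATT, the word AAATAT and the word TAAATA on either strand, and overlapping matches run together.
Lk6 (chr3R:11760998-11761098, minus strand): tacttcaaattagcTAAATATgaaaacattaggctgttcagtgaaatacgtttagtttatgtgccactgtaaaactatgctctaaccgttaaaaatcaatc
larp (chr3R:28326541-28326641, minus strand): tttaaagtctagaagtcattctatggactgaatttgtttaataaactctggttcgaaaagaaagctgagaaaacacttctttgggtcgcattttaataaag
ph-p (chrX:2137312-2137412, minus strand): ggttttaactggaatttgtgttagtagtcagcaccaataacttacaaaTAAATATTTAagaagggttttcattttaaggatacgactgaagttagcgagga
lncRNA:CR44619 (chrX:12751363-12751463, plus strand): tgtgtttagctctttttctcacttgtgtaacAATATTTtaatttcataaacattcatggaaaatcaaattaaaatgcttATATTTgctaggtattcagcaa
CG4496 (chr2L:7188603-7188703, minus strand): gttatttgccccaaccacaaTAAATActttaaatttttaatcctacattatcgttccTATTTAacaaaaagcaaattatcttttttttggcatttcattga
Reph (chr2L:3804715-3804815, plus strand): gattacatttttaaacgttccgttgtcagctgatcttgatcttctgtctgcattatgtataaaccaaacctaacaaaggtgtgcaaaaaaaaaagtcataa
papi (chr2L:2221743-2221843, plus strand): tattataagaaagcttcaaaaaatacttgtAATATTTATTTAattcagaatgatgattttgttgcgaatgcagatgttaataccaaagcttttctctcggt
chif (chr2L:16351203-16351303, minus strand): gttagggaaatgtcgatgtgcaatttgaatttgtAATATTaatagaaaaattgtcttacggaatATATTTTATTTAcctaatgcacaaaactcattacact
salr (chr2L:11358569-11358669, plus strand): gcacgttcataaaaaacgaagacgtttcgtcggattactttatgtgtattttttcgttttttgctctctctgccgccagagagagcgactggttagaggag
salm (chr2L:11446126-11446226, minus strand): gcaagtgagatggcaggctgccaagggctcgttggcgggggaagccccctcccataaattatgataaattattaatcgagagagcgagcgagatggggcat
The windows at ph-p, papi, lncRNA:CR44619 and chif held 5, 4, 3 and 3 such matches. Those at Lk6 and CG4496 held 2 each, and those at larp, Reph, salr and salm held 0. The GC content was 30.7% at Lk6, 25.7% at lncRNA:CR44619, 43.6% at salr and 53.5% at salm.

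The members crowded towards the TSS. Their median distance was 405 bp, with quartiles at 272 and 632 bp and a range of 202 to 990 bp, and 261 of them lay within 400 bp of it. In steps of 100 bp the count was 165 between 200 and 300 bp, 96 between 300 and 400 bp and 51 between 400 and 500 bp, and 27 between 900 and 1000 bp. The 274 peaks of the same distance range among the 3839 lowest-signal pooled peaks had a median distance of 545.5 bp, with 43 and 17 peaks in the first and last of those steps. The weak peaks, measured the same way, serve as the background throughout. Closer than 200 bp there were 200 IDR peaks at 1 to 100 bp and 250 between 100 and 200 bp that had no TSS on the other strand within reach. These 450 proximal peaks are the second comparison set.

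**Figure D1:**
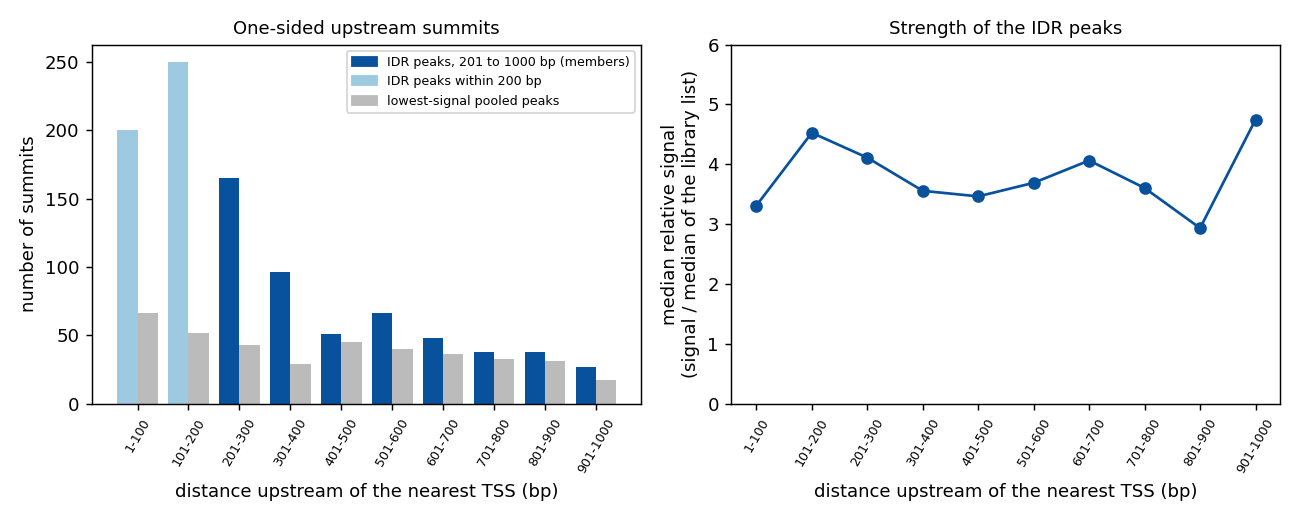
Left, number of summits per 100 bp upstream of the nearest TSS, for the 529 members (dark bars), the proximal IDR peaks (light bars) and the lowest-signal pooled peaks (grey bars). Right, median relative signal of the IDR peaks in the same steps. The member count is 165 between 200 and 300 bp and 27 between 900 and 1000 bp, while the median relative signal stays between 2.93 and 4.75 in the steps beyond 200 bp.

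Peaks just inside and just outside the edges of the range had these values. The members nearest to the TSS were 202 bp from it, at Pfrx and at PAN3, with a relative signal of 4.01 ± 1.03 (SD, n = 3) and, in the only library that held it, 2.72. Relative signal is the authors' signal value of a peak over the median of all peaks that the library lists, so a typical listed peak has a value of 1. Just outside, at 200 bp, lay peaks at Eno, the enolase gene of glycolysis, with 11.5 ± 2.24, and at AdamTS-B, with 2.38 ± 0.403 (SD, n = 3 each). At the far edge the last members were 985 bp upstream of CG4116, with 2.18 ± 1.45, and 990 bp upstream of CG2772, with 4.78 ± 0.155 (SD, n = 3 each). Beyond it, peaks at lncRNA:CR44547 (1004 bp, 3.25 ± 0.941, SD, n = 3) and Lpin (1005 bp, 2.05 in the 1 library that held it) were left out.

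The strongest member lay in an intron of Lk6, which encodes a kinase that phosphorylates the cap-binding translation factor eIF4E, 969 bp upstream of an internal TSS. It was the third strongest of all IDR peaks, and its relative signal was 40.2, 33.5 and 35.5 in libraries 1, 2 and 3 (36.4 ± 3.47, SD, n = 3). The next, 327 bp upstream of a TSS of larp, which encodes a La-related RNA-binding protein, had 32.5, 30.0 and 32.1 (31.5 ± 1.38, SD, n = 3). These values varied little between libraries. The third was 507 bp upstream of a TSS of ph-p, a Polycomb repressive complex subunit gene, with 30.6, 22.0 and 33.2 (28.6 ± 5.88, SD, n = 3). The ph-p gene has a near-identical tandem copy, ph-d, so the assignment of reads between the copies is uncertain. The fourth, 454 bp upstream of the noncoding gene lncRNA:CR44619 and inside an exon of lncRNA:Vinr, had 28.2, 16.7 and 34.4 (26.5 ± 8.996, SD, n = 3), and library 2 was the lowest of the 3 there.

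The other named members among the 15 strongest had mean relative signals of 16.2 to 25.3. They lay at CG1888 (25.3 ± 3.56), Sesn and CG46429 (21.8 ± 3.09), HmgZ (21.6 ± 7.87), CG4496 (20.997 ± 5.79), Reph (18.9 ± 4.004), Rtnl1 (17.6 ± 4.38), papi (17.2 ± 2.18), lncRNA:CR45668 (17.1 ± 1.52), chif (16.9 ± 1.17), Sox14 (16.8 ± 2.79) and sp3 (16.2 ± 7.80), each SD with n = 3. Sesn encodes sestrin, a stress-responsive inhibitor of TOR signalling, HmgZ a high mobility group box protein, and Rtnl1 a reticulon that shapes the endoplasmic reticulum. The papi gene encodes a Tudor domain protein of the piRNA pathway, chif the activating subunit of the Cdc7 replication kinase, and Sox14 an ecdysone-induced transcription factor needed for neuronal remodelling at metamorphosis. All 15 were matched in the 3 libraries. Of these, 10 lay inside the gene of their nearest TSS, 1 inside another gene and 4 between genes. Members made up 19 of the 100 strongest IDR peaks and 83 of the 500 strongest, beside 13.8% of all IDR peaks.

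**Figure D2:**
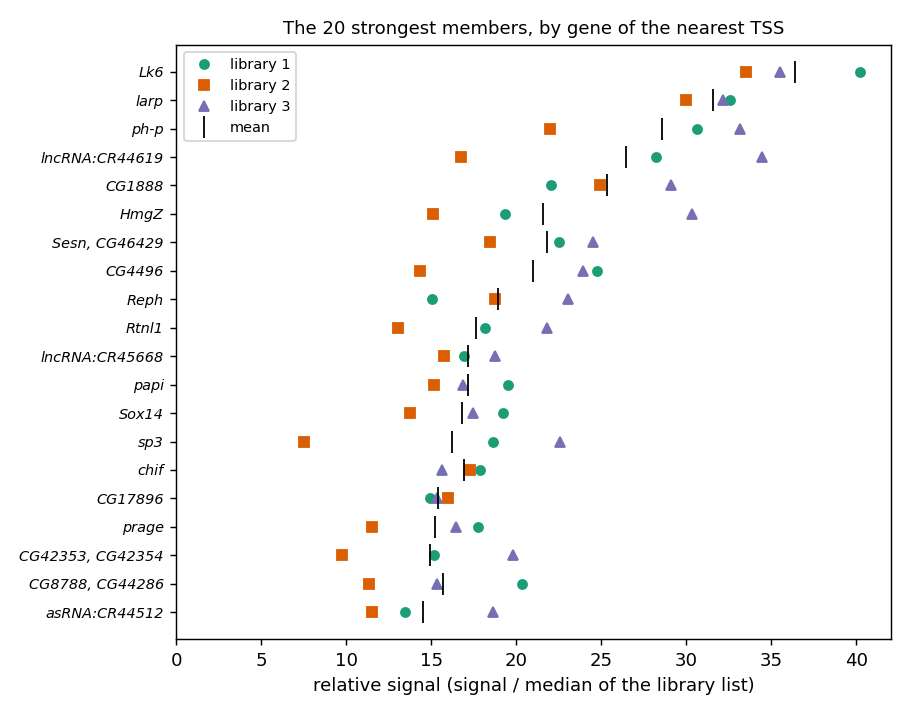
Relative signal (signal over the median of the library's list) of the 20 members with the highest pooled signal, in that order, in each of the 3 libraries, with the mean as a vertical line. Lk6 is highest at a mean of 36.4, and library 2 is the lowest of the 3 at lncRNA:CR44619 and at sp3 (7.52).

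Both spalt genes had a member. At salr (2L, 11358497 to 11358739) the summit was 254 bp upstream of the TSS, and the relative signal was 11.7, 13.9 and 10.9 in libraries 1, 2 and 3 (12.2 ± 1.56, SD, n = 3). At salm (2L, 11446058 to 11446321) it was 562 bp upstream, with 6.70, 7.33 and 6.19 (6.74 ± 0.567, SD, n = 3). Library 2 was the highest of the 3 at each of these genes. Both summits lay between genes. The gene behind the salr peak, lncRNA:CR44586, pointed the same way as salr, while the gene behind the salm peak, lncRNA:CR46454, pointed away from it, and lncRNA:CR46454 had a member of its own in the same gap. Whether the transgene adds a copy of the salr sequence is not stated in the labels.

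Most members lay inside genes. The summit was within the gene of its nearest TSS for 216 (40.8%, Wilson interval 36.7% to 45.1%), within another gene for 78 (14.7%) and between genes for 235 (44.4%). All 216 of the first kind lay upstream of an internal start site, with a further TSS of the same gene on the far side. This follows from the definitions, since a gene begins at its outermost TSS. An intron held 269 members (50.9%) and an exon 25 (4.73%). Proximal peaks were in the gene of their nearest TSS in 33.1% of cases and in an exon in 15.1%, and weak peaks of the same range in 20.1% and 14.96%. Over all IDR peaks these shares were 48.2% and 12.3%, with 53.0% in an intron and 34.7% between genes. The rule kept only summits upstream of their nearest TSS, while the whole list also holds summits downstream of one. The share of members between genes therefore depends on the rule, and how much of the difference this makes was not tested. Peaks are not independent replicates, and such intervals cover counting error only.

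Protein-coding genes with a member were long. Their median length was 11304 bp, against 5629 bp for genes with a proximal peak, 2540 bp for genes at the divergent promoters that the rule dropped and 2166 bp for all protein-coding genes. They had 2.55 annotated TSSs on average, against 2.29, 1.58 and 1.41 in those sets, and 34.5% had a single TSS, against 73.5% of all protein-coding genes. A long gene with many start sites offers more places for a peak to count as upstream of a TSS, and how much of the difference this makes was not tested. Of the members between genes, 109 of 235 (46.4%, Wilson interval 40.1% to 52.8%) faced a gene on the other strand that pointed away from them, and 126 faced the end of a gene on the same strand. The far gene was a median of 2112 bp from the summit. For proximal peaks 33.5% faced a gene pointing away, at a median of 725 bp, and for weak peaks 38.3%, at a median of 4244 bp. The rule bears on these values. It dropped 365 peaks upstream of TSSs on both strands, and only 26 of them were in the distance range of the members. The values of proximal peaks are thus partly set by the rule, and how far was not tested.

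Some genes had several members. In all, 476 genes had at least 1 member, which is 2.62% of the 18164 annotated genes, and 57 of them had 2 or more. Rtnl1 had 4, all inside the gene, with mean relative signals of 17.6, 6.19, 3.36 and 2.84. There were 3 members each at prage, dnc, CG43658, NFAT, pnt and sdt. The dnc gene, which encodes the cyclic AMP phosphodiesterase Dunce, had 13.2, 4.01 and 2.44, and sdt, which encodes the cell polarity scaffold Stardust, had 3.22, 2.70 and 2.13. Another IDR summit lay within 1000 bp of 122 members (23.1%), against 61 proximal peaks (13.6%) and 18.4% of all IDR peaks, so members of a gene are not independent of each other.

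The gene lists were read against the 2.62% of all genes with a member and against the 13.5% with any IDR summit up to 1000 bp from a TSS on either side. Of the 2452 genes with such a summit, 19.4% had a member. The lists were chosen with earlier results of these data known, so their counts are descriptions and carry no test.

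Several housekeeping lists held no member. Of 92 cytoplasmic ribosomal protein genes, 0 had a member, while 62 had some IDR summit in that reach. Those genes had 67 summits nearby, of which 32 were proximal, 22 lay at divergent promoters, 13 were downstream of a TSS and 0 were in the range of the members. Of 73 mitochondrial ribosomal protein genes, 0 had a member and 14 had a summit, and of 53 translation factor genes, 0 had a member and 12 had a summit. Within 1000 bp of a translation factor TSS lay 1 member, which was nearest to the TSS of another gene. These shares with a summit, 19.2% and 22.6%, were nearer to that of all genes than the 67.4% of the cytoplasmic list. The 27 cell cycle genes and the 15 insulator and promoter factor genes also had 0 members, with 4 and 8 genes that had a summit. The 20 heat shock genes had 0 members and 7 genes with a summit. At the 2.62% of all genes, a list of 27, 15 or 20 genes would hold about 1 member or none, so the counts of 0 in these lists are near the background. The lists of 92, 73 and 53 genes would also hold few at that share, so their counts of 0 are not far from it. Among genes with a summit, 19.4% of all genes had a member. The cytoplasmic list had 0 of 62, which is well below that share. The mitochondrial and translation factor lists had 0 of 14 and 0 of 12, where few would be held at that share.

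**Figure D3:**
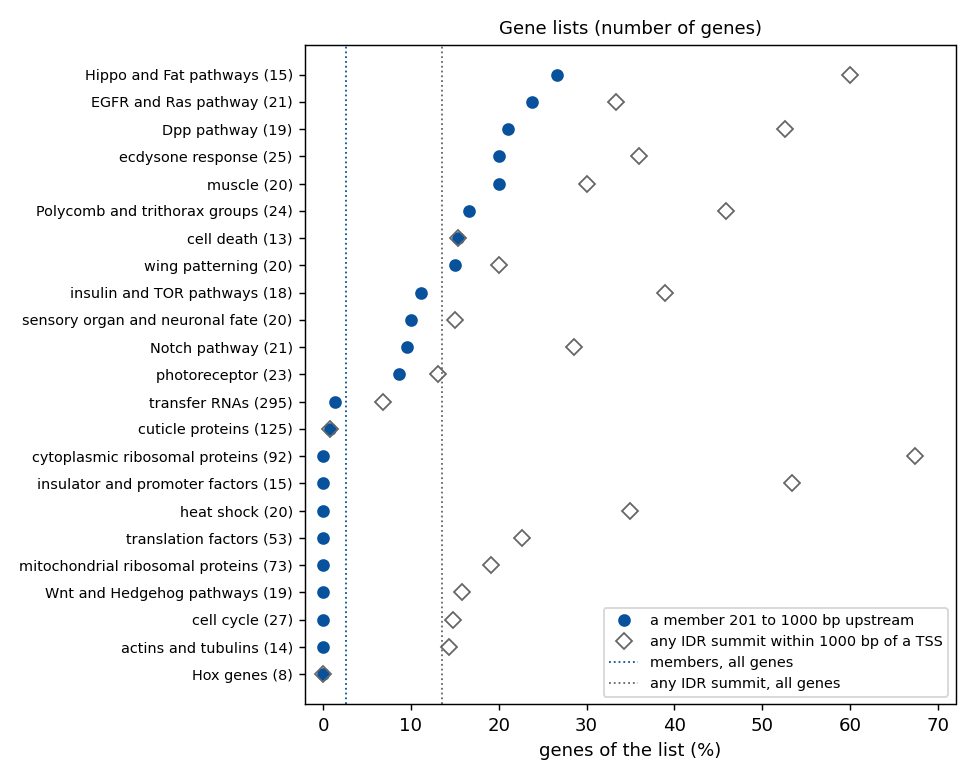
Percentage of the genes of each list other than the spalt genes (number of genes in brackets) with a member (filled circles) and with any IDR summit up to 1000 bp from a TSS (open diamonds), with dotted lines at the values for all genes, 2.62% and 13.5%. Cytoplasmic ribosomal protein genes reach 67.4% for any summit and 0% for members, and Hippo and Fat pathway genes have the highest share with a member among the lists drawn, 26.7%.

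Several signalling lists held members. In the epidermal growth factor receptor (EGFR) and Ras pathway, which relays a secreted ligand through Ras to transcription factors of the ETS family, 5 of 21 genes had a member and 7 had any summit. Those 5 genes held 8 members. The ligand gene spi had 1 at 340 bp with a relative signal of 5.89, 3.06 and 7.38 in libraries 1, 2 and 3 (5.44 ± 2.19, SD, n = 3) and another at 357 bp, absent from library 1. The ETS activator gene pnt had 3, the strongest with 2.33, 6.34 and 1.98 (3.55 ± 2.43, SD, n = 3). Library 2 was lowest at spi and highest at pnt. The remaining members were at 2 genes of inhibitors, sty (Sprouty, 3.61 ± 1.72) and aos (Argos, 3.45 ± 1.43), and at the ETS repressor gene aop (2.56 ± 1.30, SD, n = 3 each).

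In the Hippo and Fat pathways, which restrain tissue growth, 4 of 15 genes had a member and 9 had any summit. The cadherin gene ds (Dachsous) had 13.8, 9.75 and 11.9 (11.8 ± 2.04, SD, n = 3) at 573 bp. The gene of its partner cadherin, ft (Fat), had 4.71 ± 1.79 at 505 bp, and ex (Expanded), which acts between the membrane and the kinase cascade, had 4.53 ± 1.89 at 966 bp (SD, n = 3 each). The kinase gene dco had a member in 2 libraries. All 4 lay between genes.

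The Dpp pathway, the fly bone morphogenetic protein cascade that controls the spalt genes in the wing, had a member at 4 of 19 genes and any summit at 10. The repressor gene brk (Brinker) had 6.60, 2.06 and 11.7 (6.80 ± 4.85, SD, n = 3), and its libraries were among the most unequal of any member. The transducer gene Mad had 3.84, 2.25 and 3.14 (3.08 ± 0.799, SD, n = 3). The zinc finger cofactor gene shn had 2.70 ± 0.853 (SD, n = 3), and the T-box gene bi was listed in 2 libraries. With mirr, a homeobox gene, brk and bi were also the 3 of 20 wing patterning genes with a member.

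The ecdysone response list, which covers the hormone cascade of metamorphosis, had a member at 5 of 25 genes and any summit at 9. E23, which encodes an ABC transporter that lowers the ecdysone response, had 9.07, 6.05 and 13.8 (9.64 ± 3.89, SD, n = 3). Eip93F, a regulator of adult development, had 1.80, 4.75 and 1.54 (2.70 ± 1.78, SD, n = 3), so library 2 stood above the other libraries there. The early genes Eip74EF and br and the nuclear receptor gene Hnf4 had 2.39 ± 1.53 (SD, n = 3), 2.07 ± 0.494 (SD, n = 3) and, over the libraries that held it, 2.94. In the cell death list 2 of 13 genes had a member, the pro-apoptotic gene hid with 8.69, 5.04 and 11.01 (8.25 ± 3.01, SD, n = 3) and the caspase inhibitor gene Diap1, absent from library 2.

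Among muscle genes 4 of 20 had a member and 6 had any summit. They were Msp300, which encodes a nesprin that anchors nuclei (5.54 ± 3.54 and 4.05 ± 2.37 at its members), the Z-disc gene Zasp52 (5.49 ± 2.25), the titin-like gene sls (3.46 ± 0.479, SD, n = 3 each) and the transcription factor gene Mef2, listed in 2 libraries. Of 24 Polycomb and trithorax group genes, which maintain repressed and active states, 4 had a member and 11 had any summit. Beside ph-p these were ph-d, Psc (2.39 ± 0.871, SD, n = 3) and Trl, which encodes the GAGA factor. In neural lists, elav, an RNA-binding protein gene used as a neuronal marker, had 8.11, 7.61 and 11.2 (8.98 ± 1.95, SD, n = 3), at a TSS that it shares with lncRNA:enrr, and the homeobox gene ct had 2.40 ± 0.255 (SD, n = 3). They were 2 of 20 sensory organ and neuronal fate genes. The photoreceptor list had 2 of 23, the opsin gene Rh5 (2.72 ± 1.64) and the fate gene dac (2.57 ± 0.196, SD, n = 3 each).

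The remaining lists differed. The Notch pathway had 2 of 21 (9.52%), the coactivator gene mam (3.40 ± 1.09, SD, n = 3) and the target gene E(spl)m7-HLH, listed in 2 libraries. The insulin and TOR list had 2 of 18 (11.1%), Lk6 and the receptor gene InR (2.05 ± 0.361, SD, n = 3). The Wnt and Hedgehog list had 0 of 19 and the actin and tubulin list 0 of 14. Hox genes had 0 of 8, with 0 for any summit as well. Among 125 cuticle protein genes 1 had a member, Cpr72Eb (5.20 ± 1.76, SD, n = 3), and no other IDR summit lay within 1000 bp of any of them. Among 295 transfer RNA genes 4 had a member, led by tRNA:Met-CAT-1-2 (5.05 ± 0.463, SD, n = 3), which is 1.36%, below the share of all genes.

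Most members were found in all 3 libraries, while their strength differed. A summit within 100 bp was found in all 3 libraries for 440 members (83.2%), in 2 for 81 and in 1 for 8. Of all IDR peaks 82.9% were found in all 3, close to the members' share. The IDR list was itself chosen for agreement. Among the 3839 strongest peaks of a library were 426 members in library 1, 357 in library 2 and 433 in library 3, and 270 members (51.04%) were among the strongest of every library, against 48.0% of all IDR peaks. Spearman's correlation of relative signal across members was 0.688 between libraries 1 and 2 (n = 471), 0.748 between 1 and 3 (n = 474) and 0.577 between 2 and 3 (n = 456), as a description across peaks that share a control file. For the 440 members matched in all libraries, the ratio of the highest to the lowest library had a median of 1.82 and reached 6.15 at lncRNA:CR43626.

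Library 2 stood apart by base composition. Of those 440 members, 265 had their highest relative signal in library 3, 114 in library 1 and 61 in library 2. The mean GC content of the 50 bp on each side of the summit was 46.3% for the members that were highest in library 2, against 32.8% for those highest in library 1 and 33.6% for those highest in library 3. The members at pnt, sty, Rh5 and Eip93F, where library 2 was the highest, had 61.4%, 66.3%, 58.4% and 40.6%. The part of base composition in the differences between libraries was not tested.

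The distance range of the members held a larger share of strong peaks than of weak ones in each library. Among the 3839 strongest peaks of libraries 1, 2 and 3 it held 14.3%, 12.4% and 14.1%, against 7.55%, 8.52% and 6.59% of as many of the weakest. The difference was 6.05 ± 1.94 percentage points (SD, n = 3), higher in 3 of 3 libraries, with an exact sign-flip p of 0.25, two-sided, the smallest that 3 libraries allow. With 1000 peaks on each side it was 10.3 points. An excess of strong peaks is not particular to this range. At 1 to 100 bp there were 200 IDR peaks and 66 of the lowest-signal pooled peaks, and at 101 to 200 bp 250 and 52. That is a larger excess than the 529 members against 274 weak peaks. The difference in strength between members and proximal peaks was smaller than its spread over the libraries. Their median relative signal was 3.83, 3.29 and 4.70, against 4.001, 3.17 and 4.72 for proximal peaks, a difference of −0.028 ± 0.143 (SD, n = 3, higher in 1 of 3 libraries), and the difference was 0.0436 without library 1. Within the members the median was 4.02, 3.37 and 4.72 inside the gene of the nearest TSS and 3.82, 3.43 and 5.03 inside another gene, against 3.72, 3.16 and 4.64 between genes. It was lowest between genes in each of the 3 libraries, a difference that was not tested.

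The features of the strong peaks of this range were then compared, in each library's own 3839 strongest peaks, with the strong proximal peaks and with the weakest peaks of the same range. These sets held 550, 475 and 542 peaks, 494, 489 and 405 proximal peaks and 290, 327 and 253 weak peaks in libraries 1, 2 and 3. In all, 24 comparisons were made, and every exact sign-flip p was at least 0.25 (0.30 or more after Benjamini-Hochberg adjustment), so none could pass a threshold of 0.05. The nearest TSS belonged only to noncoding genes for 14.9%, 15.4% and 15.9% of strong peaks of the range, against 7.09%, 7.98% and 8.64% of strong proximal peaks, a difference of 7.48 ± 0.309 points (SD, n = 3), higher in 3 of 3 libraries. The weakest peaks were higher still, at 18.6%, 19.3% and 21.3%. In the IDR list the share was 13.8% of members, against 17.8% of all peaks. The library values did not overlap in either comparison, and the same held for most of the 24 comparisons. Against proximal peaks they overlapped for GC content, the own gene, chromosome X and the words AAATAT and GAGAGA. Against the weakest peaks they overlapped for the share between genes and the words TATCGATA, GAGAGA and GGTCACAC. A lack of overlap is therefore not particular to the noncoding share.

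The gene of the nearest TSS held the summit for 37.5%, 41.5% and 39.3% of strong peaks of the range, against 21.7%, 26.9% and 17.0% of the weakest, a difference of 17.5 ± 4.17 points (SD, n = 3), higher in 3 of 3. Against proximal peaks, at 28.5%, 40.3% and 28.9%, the difference was 6.84 ± 4.95 points, and in library 2 it was close to nil. Exons held 4.55%, 6.53% and 5.90%, against 11.5%, 12.7% and 13.1% of proximal peaks (a difference of −6.78 ± 0.548 points, SD, n = 3, lower in 3 of 3). Chromosome X held 19.8%, 19.8% and 25.5%, against 16.6%, 18.0% and 20.5% of proximal peaks (3.33 ± 1.59 points) and 11.7%, 16.5% and 13.0% of the weakest (7.93 ± 4.57 points, SD, n = 3 each, higher in 3 of 3). In the IDR list itself X held 119 members (22.5%), 3L 117 (22.1%), 2L 107 (20.2%), 2R 95 (17.96%) and 3R 91 (17.2%), and chromosome 4 held 0. Over all IDR peaks the shares were 18.2% on X, 22.2% on 3L, 19.04% on 2L, 18.3% on 2R and 22.2% on 3R.

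**Figure D4:**
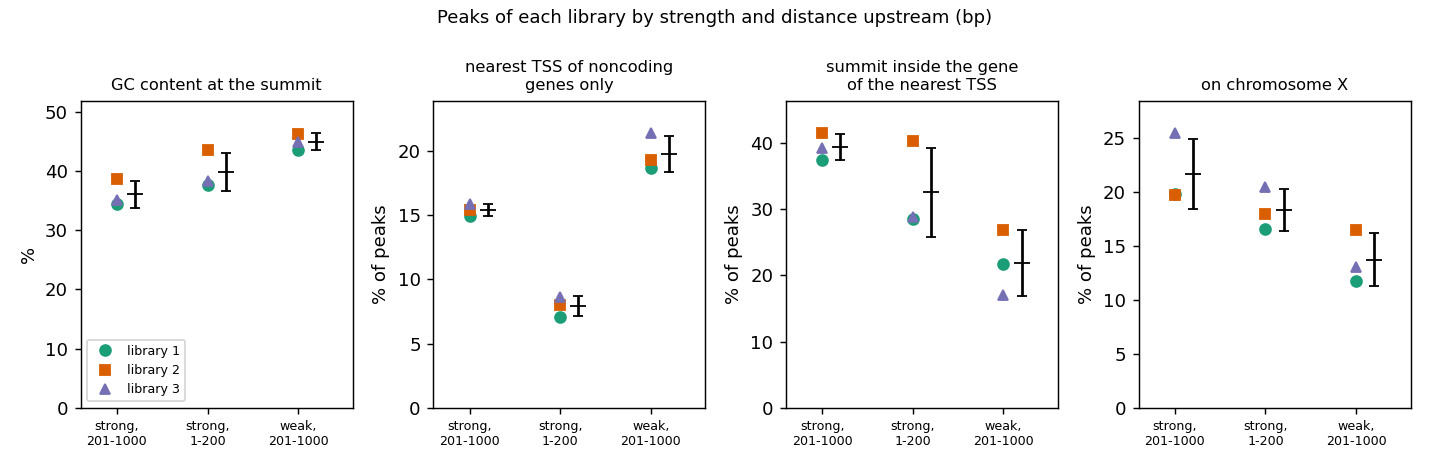
Features of the peaks of each library (symbols) in 3 sets: strong peaks over 200 bp upstream, strong peaks 1 to 200 bp upstream and the weakest peaks over 200 bp upstream, with the mean and SD over the 3 libraries to the right of the symbols. The noncoding share is 14.9% to 15.9% in the first set and 7.09% to 8.64% in the second, and the symbol for library 2 (square) is the highest for GC content in every set.

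The summits sat in a narrow trough of GC content. Averaged over the 529 members in windows of 51 bp, GC content was 35.4% at the summit, 43.9% at 250 bp farther from the TSS and 46.6% at 200 bp towards it. Proximal peaks had no such symmetric trough, with 39.4% at the summit, 36.5% at 100 bp away and 46.8% at 150 bp towards the TSS. Weak peaks had a maximum at the summit instead, 46.2%. With 50 bp on each side, member summits averaged 35.6%, against 45.6% at weak peaks, 36.3% at the summits of all 3839 IDR peaks and 40.3% at the positions 405 bp upstream of all 23584 TSSs. The members were thus close to the IDR list as a whole. At 500 bp upstream and downstream of the summit, on the strand of the gene, members had 40.8% and 43.5%. All IDR peaks had 42.3% and 43.8% there. The divergent peaks that the rule dropped had 35.3% at the summit and 48.4% and 50.5% at those places. A trough is therefore not particular to the members. In the libraries' own strong peaks of this range it was 34.5%, 38.6% and 35.0%, against 40.7%, 39.5% and 41.5% in the window 500 bp farther from the TSS (a difference of −4.55 ± 3.16 points, SD, n = 3, lower in 3 of 3, exact sign-flip p = 0.25). The difference in library 2 was the smallest.

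**Figure D5:**
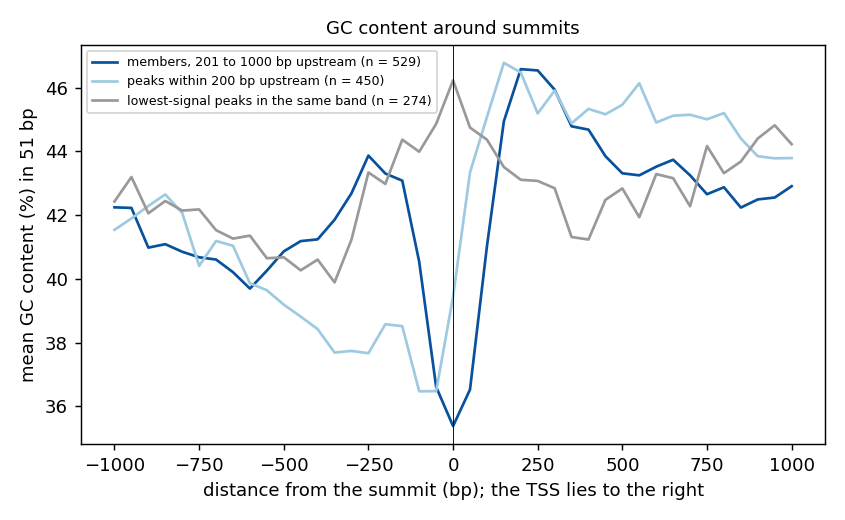
Mean GC content in windows of 51 bp at steps of 50 bp around the summit, oriented so that the TSS lies to the right, for the 529 members (dark), the 450 proximal peaks (light) and the 274 weak peaks of the same range (grey). The vertical axis does not start at 0. The members fall to 35.4% at the summit.

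Short words were sought in the same summit windows and in equal windows centred 500 bp farther from the TSS. The 2080 words of 6 bases, each counted with its reverse complement, and 7 longer words of known factors were tested. An exact binomial test, two-sided, used the members that held the word in only 1 of the windows, with Benjamini-Hochberg adjustment over all 2087 words. At an adjusted p under 0.05, 17 words (0.815%) were commoner at summits and 3 (0.144%) rarer. Of the 17, 16 had no more than 1 G or C, and 6 were among the 36 words made of A and T alone. The 3 lower words each had 3 or more G or C. GC content was lower in the same windows, as given above, and its part in the calls was not tested. When the members were limited to those among the strongest peaks of the other libraries, 2 higher and 1 lower word were called without library 1 (293 members), 17 and 8 without library 2 (363 members) and 1 and 0 without library 3 (313 members, with 70 and 90 words at an unadjusted p under 0.05). With windows of 25 bp on each side the counts were 0 and 0, with 55 and 72 at an unadjusted p under 0.05. The same test gave 3 higher and 1 lower word at proximal summits, and 0 higher and 2 lower at the weak peaks (57 and 54 at an unadjusted p under 0.05).

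AATATT, the kind of word that spalt zinc fingers are linked to, was present at 16.3% of member summits and 9.07% of their flanking windows (adjusted p = 0.0496, exact binomial test, and 0.00634 against the window towards the TSS). It was present at 8.22% of proximal summits, 7.30% of weak peaks, 14.8% of all IDR summits and 10.5% of windows 405 bp upstream of all TSSs. In libraries 1, 2 and 3 it was found at 16.5%, 11.6% and 16.4% of strong peaks of the range, against 11.3%, 6.544% and 10.9% of strong proximal peaks (a difference of 5.27 ± 0.265 points, SD, n = 3, higher in 3 of 3, exact sign-flip p = 0.25). Its occurrences in 50 bp steps along the members were 43 at the summit and 47 at 50 bp towards the TSS, against 26 at 500 bp on either side. AAATAT was present at 30.8% of summits and 20.4% of flanks (adjusted p = 0.0299, exact binomial test). Its share was 28.4% at all IDR summits and 24.9% at proximal summits. TAAATA, which led all words and was picked after its value was seen, was present at 29.1% of summits and 16.8% of flanks (adjusted p = 0.00786, exact binomial test), and at 18.5% of windows 405 bp upstream of all TSSs. These words overlap in longer runs such as the one at ph-p.

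Words of promoter factors differed in how common they were. TATCGATA, the DNA replication-related element word, was found at 0%, 0.421% and 0.369% of the strong peaks of the range in libraries 1, 2 and 3, against 2.83%, 1.64% and 2.47% of strong proximal peaks (−2.05 ± 0.811 points, SD, n = 3, lower in 3 of 3). GGTCACAC, the core of the motif 1 element, gave 0.182%, 0.211% and 0.185%, against 2.02%, 1.02% and 2.22% (−1.56 ± 0.659 points, SD, n = 3, lower in 3 of 3). The exact sign-flip p was 0.25 for each. These words occur at 0.857% and 0.645% of windows 405 bp upstream of all TSSs. Such elements are known to be placed near the TSS, and the part of distance to the TSS in the differences was not tested. GAGAGA, the GAGA factor word, was present at 5.48% of member summits and 6.62% of flanks (adjusted p = 0.928, exact binomial test), against 5.63% of all IDR summits and 3.55% of windows 405 bp upstream of all TSSs, and 2 copies, 1 on each strand, are in the salr window. TTATGAAAT, a longer spalt-type word, was found at 4 members (0.756%) and at 0 of their flanks (adjusted p = 0.573, exact binomial test). It was found at 0.521% of all IDR summits and 0.369% of windows 405 bp upstream of all TSSs.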

How the data were processed

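The authors deposited peak lists on the dm6 assembly, per the labels and the deposited notes: 1 per library, 1 from pooled alignments and 1 after IDR thresholding, each derived with the same control. Which aligner and which peak caller made them is not given in the sources used here. Each peak's signal is the authors' enrichment value, deposited on a scale that is not stated. No column of per-sample values was left unused (0).

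Reference genes came from Ensembl BDGP6.54, release 115, with 18164 genes and 23584 distinct TSSs. Summits (the deposited start plus offset) were matched within 100 bp. Coordinates are 1-based. Taking the summit as 0-based gave 530 members. The library was the replicate, compared by exact two-sided sign-flip tests, whose smallest p with 3 libraries is 0.25. Peaks, words and genes are not independent replicates. Words were tested over all 2087 words, and on simulated data 6 of 6 planted words were called, 13 other words, all shifted by 1 base from a planted word, were called, and 0 were called without planting, over 529 peaks. Both simulated windows were shuffled from the same flank sequence, so their GC content was equal before planting. Real summits and flanks differ in GC content, and the simulation does not show how the test behaves then.

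The members and lists were chosen with earlier results of these data known. TAAATA, the 24 per-library comparisons, the word shares upstream of all TSSs and 6 aliases of list names were chosen after seeing the data. Named genes are those at the 15 members with the highest pooled signal, salr and salm, the leading members of each list and the peaks at the edges of the range, and other names were added after their values were seen. Alternatives were other windows, flanks, matching distances, TSS sets and leaving out each library. The tools were scipy 1.17.1 (tests), pandas 2.3.3 and numpy 2.4.6 under Python 3.11.15, and matplotlib 3.10.9 for figures.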

Additional observations from a re-analysis of the deposited data

How the results depend on the processing

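No paired analysis was possible because there is only 1 group of replicates, so no samples of different groups could be paired. Peak sets were compared within each library. The larger share of strong than of weak peaks in the range and the lower GC content at the summit kept their direction under every alternative run. Leaving out a library in turn gave 5.31 to 7.15 points for the share and −6.37 to −3.59 points for GC content. The difference in median relative signal between members and proximal peaks was −0.028, and it turned to 0.0123 with protein-coding TSSs only, to 0.0284 with divergent summits kept and to 0.0436 without library 1, within a range of −0.0996 to 0.0436 over the libraries left out. The count of called words depended on the settings. The 17 higher and 3 lower words became 0 and 0 with 25 bp on each side (55 and 72 at an unadjusted p under 0.05), 31 and 14 with 75 bp, 108 and 94 with the flank towards the TSS, and 66 and 44 with the flank at 300 bp. With divergent summits kept, 27 were higher. Leaving out each library, with members limited to the strongest peaks of the others, gave 1 to 17 higher and 0 to 8 lower words over 293 to 363 members. The lowest counts came without library 3 (1 and 0, with 70 and 90 at an unadjusted p under 0.05), and without library 1 there were 2 and 1. These limited sets hold fewer members. The GAGAGA difference between strong peaks of the range and strong proximal peaks was −1.77 points, with a range of −3.42 to 0.413 points over the libraries left out (0.413 without library 2). The share between genes, compared with the weakest peaks, was −0.0342 points, and −3.44, 0.0646 and 3.28 points without library 1, 2 and 3. The cause was not tested. Depth is unknown, and with 3 libraries no test over libraries can pass 0.05.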
